A study of Mus musculus with 8 samples.

Results

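The genes described here are 33 immediate early and stress response genes, chosen by symbol from the 41591 gene IDs counted in each library, and all 33 had a row. They comprise AP-1, EGR, NR4A and KLF transcription factors, DUSP phosphatases, other early response genes, and the inducible heat shock genes Hspa1a and Hspa1b. Of these, 30 passed the filter on low counts, and Jund, Hspa1a and Hspa1b did not. RNA was sequenced from whole ovaries of 4 mice labelled as Insr-Igf1r double knockout (DKO) and of 4 Control mice labelled as wild-type and Pgr-Cre positive. The knockout was conditional, the Controls were littermates, and all 8 were recorded as C57BL/6 females of about 3 weeks. Every mouse was given equine chorionic gonadotropin (eCG, 4 IU) to grow follicles, followed after 48 h by human chorionic gonadotropin (hCG, 5 IU), which acts on the receptor of luteinizing hormone (LH), and ovaries were taken 12 h after hCG. Cre is named in the Control labels as driven by the progesterone receptor gene Pgr, so a deletion made with it is limited to cells that have expressed Pgr, and a whole ovary also holds other cells. No ovary was taken before hCG, so induction itself was not measured.

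Immediate early genes are transcribed within minutes of a stimulus, without new protein synthesis, when ERK, stress kinases or cAMP-dependent kinase activate factors already bound at their promoters, such as SRF with its ETS partners and CREB. Their messenger RNAs are short-lived, and many of their products, the DUSP phosphatases among them, shut the same kinases off. In granulosa cells the LH surge is known to induce several of them, among them Egr1, Fosl1 and Nr4a1, ahead of the ovulatory genes.

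Levels are given as CPM (counts scaled to library size with TMM factors), and fold changes are log2 values of DKO over Control with SE. Libraries held 33145056 to 39257648 counts. The targeted genes checked the labels only weakly, because counts over a whole gene cannot separate a deleted exon. Insr was at 112 to 148 CPM in the DKO libraries and at 140.0 to 162 CPM in the Control libraries (-0.30 ± 0.11, adjusted p = 0.226), and Igf1r differed by -0.14 ± 0.12 (adjusted p = 0.639; edgeR). Granulosa and luteal markers were present in every library. The oviduct gene Ovgp1 was at 724 CPM in DKO 2 and 1147 CPM in Control 1, against 2.51 to 23.8 CPM in the other 6 libraries. The sample titles carry numbers, and the labels do not say what the numbers count. Those of DKO 1, DKO 2 and Control 1 were taken here as a lower run. Those of DKO 3 and 4 and Controls 2 to 4 were taken as a higher run. The cut was a choice, because Control 1, with the lowest number, also lies apart from DKO 1 and DKO 2. For the members, values within the higher run, with 2 DKO and 3 Control libraries, are given beside the pooled ones. Both DKO numbers in that run lie below all its Control numbers, so number order and group are not separated there. In that run Insr differed by -0.12 ± 0.14 and Igf1r by 0.014 ± 0.16. The lower run holds 1 Control, too few for a value with an error of its own.

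Because the members are defined by rapid induction, the letters of their promoters are shown for 4 genes whose levels are described below. Dusp1 and Maff carry the full cAMP response element (CRE), Fos is the founding AP-1 gene, and Egr2 carries a CArG box, the element bound by SRF. Windows run from 250 bases before to 50 bases after a transcription start and were taken from RefSeq on build GRCm38.p6. They lie at chr17:26508423-26508722 on the minus strand for Dusp1, and on the plus strand at chr15:79347270-79347569 for Maff, chr12:85473640-85473939 for Fos and chr10:67537619-67537918 for Egr2. Capitals mark the full CRE, its shorter core and the CArG box, on either strand.
Dusp1: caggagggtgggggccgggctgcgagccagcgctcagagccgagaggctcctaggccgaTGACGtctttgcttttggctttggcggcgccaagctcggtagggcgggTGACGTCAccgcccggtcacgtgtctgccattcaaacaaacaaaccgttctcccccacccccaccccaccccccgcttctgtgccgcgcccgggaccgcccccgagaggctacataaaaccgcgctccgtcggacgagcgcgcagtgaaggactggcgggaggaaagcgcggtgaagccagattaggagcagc
Maff: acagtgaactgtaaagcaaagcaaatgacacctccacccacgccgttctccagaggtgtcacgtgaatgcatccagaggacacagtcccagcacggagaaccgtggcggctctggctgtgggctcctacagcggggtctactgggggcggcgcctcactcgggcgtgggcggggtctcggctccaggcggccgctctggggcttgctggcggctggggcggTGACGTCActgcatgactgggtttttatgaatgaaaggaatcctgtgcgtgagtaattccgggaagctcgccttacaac
Fos: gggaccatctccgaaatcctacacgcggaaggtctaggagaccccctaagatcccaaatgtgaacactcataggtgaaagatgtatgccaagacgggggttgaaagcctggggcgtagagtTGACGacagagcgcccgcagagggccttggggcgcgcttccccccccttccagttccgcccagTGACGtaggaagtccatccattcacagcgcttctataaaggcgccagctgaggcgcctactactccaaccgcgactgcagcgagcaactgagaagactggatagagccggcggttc
Egr2: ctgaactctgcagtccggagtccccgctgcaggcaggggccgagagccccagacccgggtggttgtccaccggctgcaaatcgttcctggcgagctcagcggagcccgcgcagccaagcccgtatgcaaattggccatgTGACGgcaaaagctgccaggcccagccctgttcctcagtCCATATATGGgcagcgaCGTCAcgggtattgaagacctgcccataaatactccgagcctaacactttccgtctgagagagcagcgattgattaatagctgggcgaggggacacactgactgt

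Windows were found for 25 of the 33 members. Those without one are Fosl1, Egr1, Egr3, Ier2, Dusp4, Klf10, Myc and Sik1. The full CRE, TGACGTCA, was searched on both strands and lay in windows of 3 members, Dusp1, Btg2 and Maff (12.0% of members, against 2.03% of 27025 genes with a window). In the windows printed it begins at -143 from the start in Dusp1 and at -29 in Maff. The other Maff windows, at chr15:79346371-79346670 and chr15:79348152-79348451, hold no full CRE. Its shorter core TGACG, which every full CRE also contains, was present in 15 members (60.0%, against 23% of all genes). A CArG box was found in Egr2, Dusp5 and Zfp36 (12.0% against 1.81%). The Egr2 window at chr10:67535249-67535548 held none. The GC box GGGCGG was present in 22 members (88.0% against 38.2%), and the heat shock element core GAANNTTC in 4, Fosl2, Jun, Hspa1a and Hspa1b (16.0% against 9.04%). No member window held the AP-1 site TGACTCA, which 5.95% of all genes had. These are matches of letters within the windows. The genes compared were all those with a window and were not matched to the members for base composition, in which the GC box shares also differ. Elements farther from the start were not searched, so a member without a match here may carry one outside its window. Binding was not measured.

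In DKO ovaries 28 of the 30 members tested had lower fitted levels than in Control, with a median log2 fold change of -0.59, but none passed the test over all genes. The median over all 16870 genes tested was -0.02, with 53.1% below 0. Within the higher run the members' median was -0.32, with 23 of 30 below 0 and 51.9% of all genes below 0. The median was -0.35 without Control 4 and -0.37 without DKO 1. With edgeR's quasi-likelihood test 0 members passed an adjusted p of 0.05 in either direction, beside 1.26% of all genes tested. At an unadjusted p under 0.05 there were 4 members, Fosl1, Dusp2, Maff and Klf4, all lower in DKO, against 6.98% of all genes in that direction. DESeq2 called 3 lower (Fosl1, Dusp2 and Maff, against 2.79% of all genes), limma-voom 0 (0.468% lower), and limma-voom with sample quality weights 2 lower (Fosl1 and Dusp2, against 3.88%). With a block for the run of title numbers edgeR called Fosl1 and Maff lower (1.3% of all genes), and within the higher run it called Fosl1 alone (0.384%). The groups of 4 did not overlap in 2 members, Fosl1 and Dusp2, where 3.54% of all genes were separated with DKO lower. In bulk RNA, fewer cells of a type and less RNA per cell cannot be told apart. Beside the members' lower levels, granulosa and luteal markers had higher summed levels in DKO, at 15920 to 20740 CPM, than in Control, at 9268 to 15850 CPM, with 7 of 10 above 0 and a median of 0.28 (0.35 within the higher run, and 6.28e-04 with sample quality weights). The largest means in that sum were those of Cyp11a1 (7941 CPM in DKO, 4561 in Control) and Hsd3b1 (5000 and 2656). Fshr, Star, Nr5a2, Amh and Inha had fold changes between -0.061 and 0.15. Hsd3b1, whose enzyme makes progesterone, was the 1 granulosa or luteal marker called by edgeR (0.91 ± 0.18, adjusted p = 0.0478). Within the higher run its fold change was also 0.91, with an adjusted p of 0.13 by edgeR. The call with all 8 libraries ended in 7 of the 8 fits without 1 library, all but the fit without Control 3, with an adjusted p of 0.0611 to 0.185 by edgeR. DESeq2 called 4 higher, Hsd3b1, Lhcgr, Cyp11a1 and Foxl2, against 3.77% of all genes, all 4 named after their values were seen. Their part in the members' levels was not tested.

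**Figure D1:**
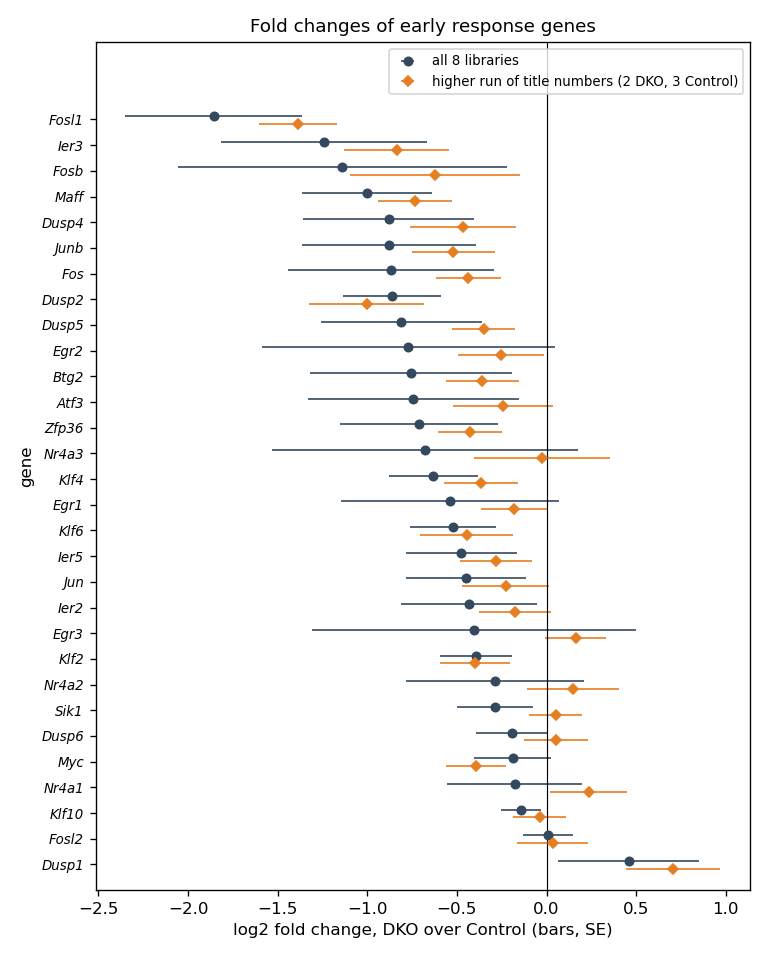
Log2 fold change of DKO over Control (horizontal axis) for the 30 members tested, with SE bars, in all 8 libraries (circles) and in the 2 DKO and 3 Control libraries of the higher run of title numbers (diamonds). Fosl1 lies farthest left at -1.86 and Dusp1 farthest right at 0.46, and 5 members, Egr3, Nr4a1, Nr4a2, Dusp6 and Sik1, are below 0 in all libraries and above 0 within the higher run.

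The AP-1 subunits held the member with the lowest fold change. Fosl1 (gene ID 14283, chromosome 19, 5447698 to 5455938, GRCm38.p5), which encodes the Fos family protein Fra-1, was at 2.64, 4.98, 11.02 and 14.4 CPM in DKO 1 to 4 and at 18.7, 26.7, 39.3 and 34.8 CPM in Controls 1 to 4. All 4 DKO libraries lay below all 4 Controls, and in each group the libraries of the lower run were the lowest. The fold change was -1.86 ± 0.49 (adjusted p = 0.12 by edgeR), and -1.39 ± 0.22 within the higher run (adjusted p = 0.0344 by edgeR). Over the 21 alternative analyses its adjusted p ran from 0.00114, with DESeq2, to 0.314. On the opposite strand the gene Ccdc85b covers 67.7% of the exon bases of Fosl1. The counting was strand-specific per the file headers, and Ccdc85b did not follow Fosl1, at 30.7 to 39.3 CPM in DKO and 33.6 to 49.2 CPM in Control (-0.11 ± 0.14, adjusted p = 0.772 by edgeR).

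Fos (gene ID 14281), the founding AP-1 gene, was at 13.1, 13.5, 52.2 and 52.7 CPM in DKO 1 to 4 and at 24.3, 56.9, 72.8 and 86.0 CPM in Controls 1 to 4. Control 1 lay between the DKO libraries, so the groups overlapped, and DKO 3 and 4 lay just below Controls 2 to 4. The fold change was -0.87 ± 0.58 (adjusted p = 0.539, edgeR), and -0.44 ± 0.18 within the higher run. Jun (gene ID 16476), the usual partner of Fos, was at 74.5, 83.2, 132 and 166.7 CPM in DKO and at 91.1, 149, 143 and 240.5 CPM in Control (-0.45 ± 0.33, higher run -0.23). Its groups overlapped over most of their range. Maff (gene ID 17133), which encodes a small Maf protein without a transactivation domain, was at 16.4, 23.3, 36.9 and 47.0 CPM in DKO and at 35.5, 55.7, 86.3 and 70.2 CPM in Control. Control 1 alone overlapped DKO, lying below DKO 3 and 4. Maff had a fold change of -1.003 ± 0.36 (adjusted p = 0.225 by edgeR), and -0.73 ± 0.21 within the higher run. Its adjusted p ran from 0.012 to 0.498 over the alternatives.

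Fosl2, which encodes Fra-2, had the fold change closest to 0 of the AP-1 members, with 551 ± 72.1 CPM in DKO and 548 ± 81.3 CPM in Control (SD, n = 4 each). Its log2 difference of 0.0079 had an interval of -0.27 to 0.29 (2 SE), and it was 0.034 within the higher run. Junb averaged 121 ± 69.6 CPM in DKO and 223 ± 98.4 CPM in Control (-0.88 ± 0.48, higher run -0.52), and Fosb 11.1 ± 10.2 and 24.4 ± 21.2 CPM in DKO and Control (-1.14 ± 0.92, higher run -0.62). Atf3, a stress-induced factor that dimerises with Jun proteins, was at 10.1 ± 7.35 CPM in DKO and 16.8 ± 8.32 CPM in Control (-0.74 ± 0.59, higher run -0.24). None of these 4 passed the test with edgeR. The 8 AP-1 members tested had a median log2 fold change of -0.87, and of -0.48 within the higher run.

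**Figure D2:**
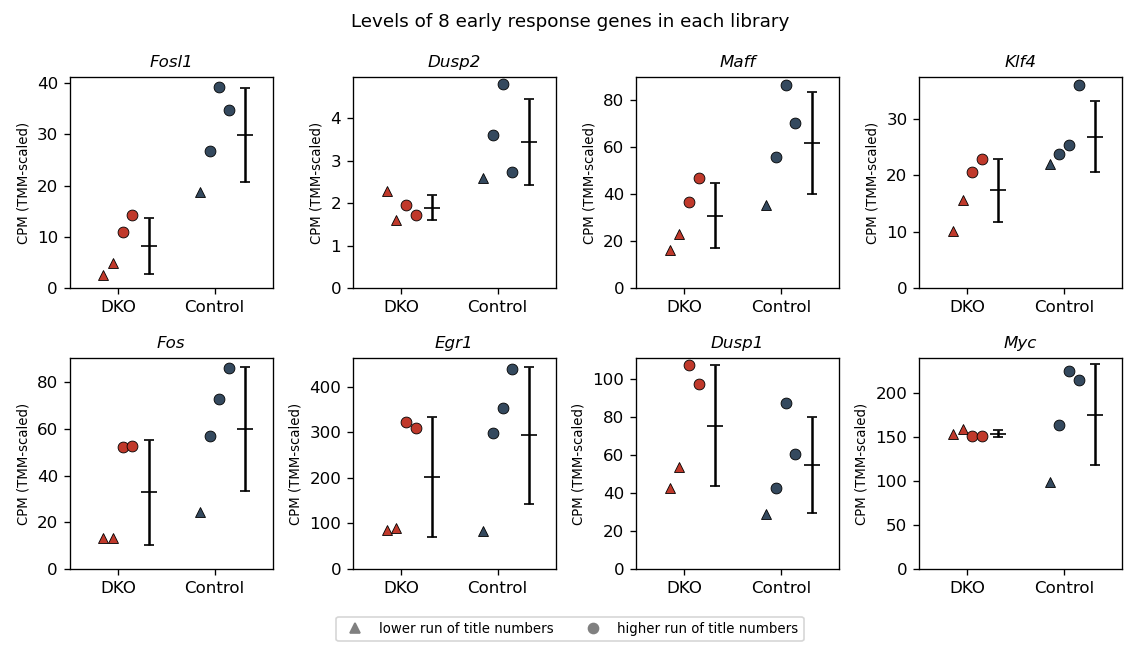
CPM (vertical axis, from 0) of 8 members in each DKO and Control library, with the mean and SD of each group at its right; triangles are libraries of the lower run of title numbers and circles those of the higher run. Fosl1 and Dusp2 are separated between groups, Fos and Egr1 differ more between the runs of title numbers than between groups, and the DKO libraries of Myc lie between 151 and 159.6 CPM.

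The EGR factors, zinc finger proteins that carry ERK signals to later genes, differed more between libraries of 1 group than between groups. Egr1 (gene ID 13653) was at 85.2, 89.8, 322 and 309.5 CPM in DKO 1 to 4 and at 84.0, 297, 353 and 438 CPM in Controls 1 to 4. DKO 1, DKO 2 and Control 1 lay near 1 level, and the other 5 libraries at more than 3 times that level. Its fold change was -0.54 ± 0.61 (adjusted p = 0.739, edgeR), and -0.18 ± 0.18 within the higher run. Egr2 ran from 3.96 to 38.6 CPM in DKO and from 8.35 to 56.2 CPM in Control (-0.77 ± 0.82, higher run -0.25). Egr3 ran from 3.60 to 48.8 CPM in DKO, a 13.5-fold range, and from 8.30 to 52.4 CPM in Control, a 6.31-fold range (-0.40 ± 0.90). In both genes DKO 1, DKO 2 and Control 1 were the 3 lowest libraries. Within the higher run the fold change of Egr3 was 0.16, above 0.

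The NR4A genes encode orphan nuclear receptors that act on steroidogenic promoters. Nr4a1 (gene ID 15370) was at 97.3, 78.9, 222 and 229.6 CPM in DKO 1 to 4 and at 127, 148, 181 and 253 CPM in Controls 1 to 4. The DKO libraries held both the 2 lowest of the 8 levels and 2 of the 3 highest. Between groups Nr4a1 differed by -0.18 ± 0.38 (adjusted p = 0.871, edgeR) and 0.24 ± 0.22 within the higher run. Nr4a2 averaged 14.3 ± 9.22 CPM in DKO and 17.4 ± 7.51 CPM in Control (-0.29 ± 0.50, and 0.15 within the higher run). Nr4a3 ran from 3.122 to 45.5 CPM in DKO, a 14.6-fold range, and from 15.02 to 59.8 CPM in Control, a 3.98-fold range (-0.68 ± 0.85, and -0.025 within the higher run).

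Among the KLF factors and Myc all 5 fold changes were below 0, in all libraries (median -0.39) and within the higher run (median -0.39). Klf4 (gene ID 16600), a zinc finger factor of differentiation, was at 10.2, 15.6, 20.5 and 22.9 CPM in DKO 1 to 4 and at 22.1, 23.8, 25.3 and 36.0 CPM in Controls 1 to 4. DKO 4 alone overlapped the Controls, lying above Control 1. Klf4 had a fold change of -0.63 ± 0.25 (adjusted p = 0.257 by edgeR), and -0.37 ± 0.21 within the higher run.

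Klf6 (gene ID 23849), another injury-induced zinc finger factor, was at 116, 107, 129 and 170.4 CPM in DKO and at 130.4, 169, 165 and 286 CPM in Control (-0.52 ± 0.24, adjusted p = 0.341 by edgeR, higher run -0.45). Klf2 (gene ID 16598), a factor of endothelial cells under flow, was at 35.5, 41.0, 43.5 and 48.2 CPM in DKO and at 37.2, 47.3, 74.7 and 61.7 CPM in Control (-0.39 ± 0.20, adjusted p = 0.389 by edgeR, higher run -0.40). Controls 1 to 3 for Klf6, and Controls 1 and 2 for Klf2, lay within the DKO range. The other Controls lay above every DKO library. Klf10, a TGF-beta-induced factor, stayed close to 1 level, with 31.5 ± 1.61 CPM in DKO and 34.8 ± 4.19 CPM in Control (-0.14, interval -0.36 to 0.077, higher run -0.039).

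Myc (gene ID 17869), a growth-promoting transcription factor, was at 153, 159.6, 151 and 152 CPM in DKO 1 to 4 and at 99.1, 163, 224 and 215 CPM in Controls 1 to 4. The DKO libraries lay in a narrow band inside the wide Control range, with an SD of 4.01 CPM in DKO and 57.5 CPM in Control. The fold change of Myc was -0.19 ± 0.22 (adjusted p = 0.741, edgeR) and -0.39 ± 0.17 within the higher run, where both DKO libraries were below all 3 Controls.

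The 3 IER genes, early response genes named for their induction, had fold changes below 0. Ier3 (gene ID 15937), a survival factor, was at 11.9, 25.3, 52.1 and 72.4 CPM in DKO 1 to 4 and at 44.3, 85.6, 161 and 91.3 CPM in Controls 1 to 4. Control 1 lay below DKO 3 and 4, and the other Controls above every DKO library. Between groups Ier3 differed by -1.24 ± 0.58 (adjusted p = 0.362, edgeR) and -0.84 ± 0.29 within the higher run. Ier3 is annotated on 3 reference sequences, the chromosome and alternate sequences, so its level is uncertain. Ier2 averaged 59.8 ± 25.8 CPM in DKO and 80.8 ± 32.3 CPM in Control (-0.43 ± 0.38, higher run -0.18). Ier5, whose product acts on the heat shock factor HSF1, averaged 36.3 ± 12.99 CPM in DKO and 50.5 ± 17.1 CPM in Control (-0.47 ± 0.31, higher run -0.28).

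The DUSP genes encode phosphatases that switch off MAP kinases, and they held the member with the highest fold change. Dusp1 (gene ID 19252), which acts on p38 and JNK in the nucleus, was at 42.7, 54.0, 107 and 97.8 CPM in DKO 1 to 4 and at 28.9, 42.7, 87.8 and 60.5 CPM in Controls 1 to 4. DKO 3 and 4 were the 2 highest of the 8 libraries and Control 1 the lowest, and the groups overlapped between these. The fold change of Dusp1 was 0.46 ± 0.39 (adjusted p = 0.647, edgeR), opposite in sign to 28 members, and 0.71 ± 0.26 within the higher run (adjusted p = 0.312, edgeR). Fosl2 was the other member above 0.

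Dusp2 (gene ID 13537), a nuclear phosphatase of ERK and p38 best known from immune cells, had the lowest level per kilobase of the members tested and was at 2.28, 1.62, 1.95 and 1.72 CPM in DKO 1 to 4 and at 2.61, 3.62, 4.81 and 2.75 CPM in Controls 1 to 4. All DKO libraries were below all Controls, and DKO 1, the highest of its group, came closest to Control 1. Its fold change was -0.86 ± 0.27 (adjusted p = 0.162 by edgeR) and -1.002 ± 0.32 within the higher run. Its adjusted p over the alternatives ran from 0.0309 to 0.383. Neutrophil markers had summed levels of 3.58 to 6.24 CPM in DKO and 8.19 to 32.3 CPM in Control, with Ly6g at 0 in the 4 DKO libraries and in Controls 2 and 4. Of 9 such markers 7 were tested and all 7 lay below 0, with 0 called by edgeR or limma-voom, 7 at an unadjusted p under 0.05 and 3 called lower by DESeq2, against 6.98% and 2.79% of all genes on that side. Control 3 held the highest sum, and without it the fold change of S100a8 was -1.46 in place of -2.47 and that of S100a9 -1.44 in place of -2.41. Their part in the level of Dusp2, or of any other member, was not tested.

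Dusp4 (gene ID 319520), a nuclear phosphatase of ERK and JNK, was at 5.20, 8.16, 15.8 and 23.7 CPM in DKO and at 14.3, 27.1, 18.8 and 37.1 CPM in Control (-0.88 ± 0.48, adjusted p = 0.426 by edgeR, higher run -0.47). DKO 3 and 4 lay within the Control range. Dusp5, a nuclear ERK phosphatase, averaged 14.0 ± 8.55 CPM in DKO and 24.5 ± 7.23 CPM in Control (-0.81 ± 0.45, higher run -0.35). Dusp6, its cytoplasmic counterpart, averaged 64.3 ± 17.8 CPM in DKO and 73.6 ± 12.9 CPM in Control (-0.19 ± 0.20), and was at 0.052 within the higher run.

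The other feedback genes act after transcription or on CREB coactivators. Zfp36 (gene ID 22695), which encodes tristetraprolin, a protein that directs AU-rich messenger RNAs to decay, was at 32.8, 40.5, 90.2 and 92.9 CPM in DKO 1 to 4 and at 45.7, 97.4, 142 and 135 CPM in Controls 1 to 4. DKO 3 and 4 were just below Control 2, and Control 1 lay among the DKO libraries. The fold change of Zfp36 was -0.71 ± 0.44 (adjusted p = 0.504, edgeR) and -0.43 ± 0.18 within the higher run. Btg2, an antiproliferative gene whose protein promotes deadenylation, averaged 177 ± 117 CPM in DKO and 298 ± 134 CPM in Control (-0.76 ± 0.57, higher run -0.36). Sik1, a kinase that holds CREB coactivators in the cytoplasm, averaged 51.9 ± 17.4 CPM in DKO and 63.3 ± 6.08 CPM in Control (-0.29 ± 0.21), and its sign turned within the higher run (0.051).

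The heat shock genes Hspa1a (gene ID 193740) and Hspa1b (gene ID 15511), which encode inducible HSP70, had 0 counts in all 8 libraries, and Jund (gene ID 16478) had at most 1 count per library. A count of 0 allows up to 3 counts, or 0.0762 to 0.0915 CPM depending on the library, for counting error only. These zeros cannot be read as absence of the transcripts. Jund is annotated on 2 reference sequences and each HSP70 gene on 4, and the coding sequences of Hspa1a and Hspa1b are identical at 1915 of 1926 aligned positions (99.4%; GENCODE M21). Of 1646 genes annotated on more than 1 reference sequence, 52.9% had 0 counts in all libraries, against 27.0% of the 39945 annotated on 1.

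Per kilobase of exon, the highest mean levels in DKO were those of Fosl2 (94.0 CPM per kb), Junb (65.98), Egr1 (65.6), Myc (64.1) and Btg2 (57.4). In Control the order was Junb (121 CPM per kb), Btg2 (96.8), Egr1 (95.4), Fosl2 (93.5), Ier3 (87.7) and Myc (73.1). Dusp2 was the lowest in both groups, at 1.17 CPM per kb in DKO and 2.13 in Control. In each order the libraries of the neighbours named here overlapped.

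Most members followed 1 pattern across libraries. DKO 1 and DKO 2 were both below DKO 3 and DKO 4 in 26 of 30 members, an order found in 28.3% of all genes tested, and Control 1 was the lowest Control in 27 of 30, an order found in 31.0%. Both held in 25 members, against 16.8% of all genes. Those without the first order were Fosl2, Klf10, Dusp2 and Myc, and those without the second were Fosl2, Klf10 and Dusp6. The lowest of the 8 libraries was DKO 1 in 20 members, and the highest was Control 4 in 17 and Control 3 in 11. The median deviation of the members from their 8-library mean was -1.11, -0.90, 0.15 and 0.38 (log2) in DKO 1 to 4 and -0.37, 0.39, 0.66 and 0.82 in Controls 1 to 4. DKO 3 and 4 were both below Controls 2 to 4 in 10 of 30 members, against 13.8% of all genes, namely Fos, Fosl1, Junb, Maff, Klf4, Myc, Ier3, Dusp2, Dusp5 and Zfp36.

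**Figure D3:**
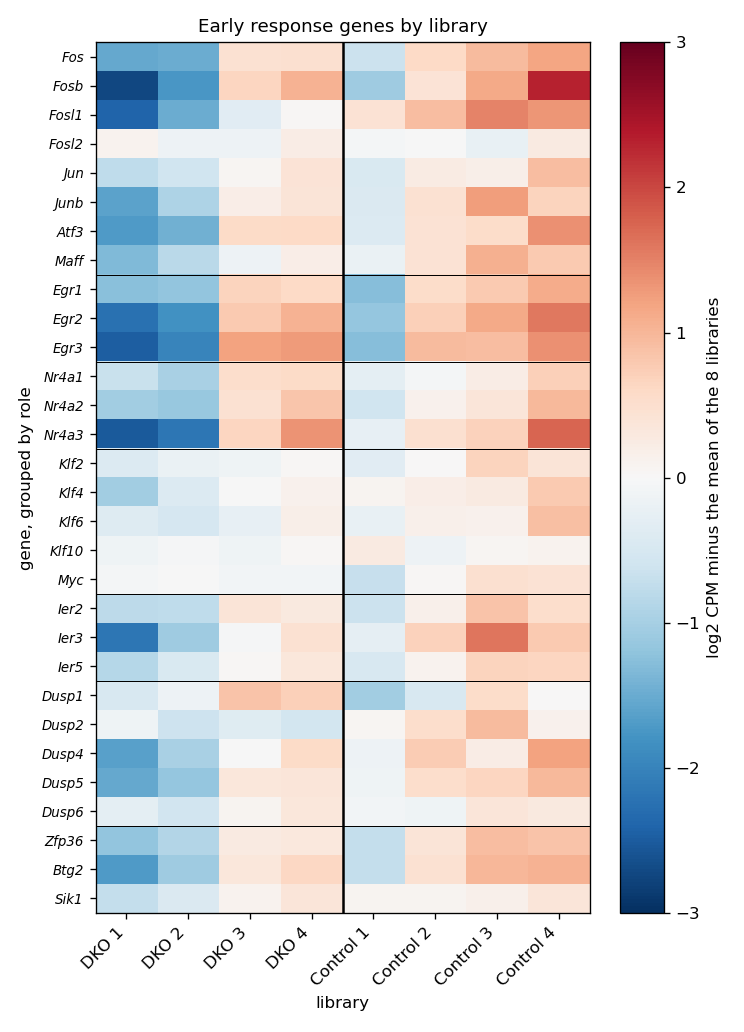
Log2 CPM of the 30 members tested (rows, grouped by role from AP-1 at the top to other feedback genes) in each library (columns, DKO left), as the difference from the gene's mean over 8 libraries. DKO 1, DKO 2 and, less so, Control 1 are blue in most rows, while Fosl2, Klf10 and Myc are pale in the DKO columns.

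In the fit with both terms, the coefficient of the run, higher over lower, had a median of 1.22 (log2) over the 30 members and was above 0 in 29, beside a median of 0.0014 over all genes. Its median was 0.533 over the other early response genes, with 37 of 42 above 0. Over the heat shock and chaperone genes it was 0.531, with 22 of 23 above 0. Among the members the coefficient was highest in Egr3 (2.96), Fosb (2.81), Egr2 (2.67) and Nr4a3 (2.37), and lowest in Klf10 (-0.10) and Fosl2 (0.080). In that fit the members' median of DKO over Control was -0.39. Oocyte markers moved with the same 3 libraries. They summed to 121, 145, 421 and 257 CPM in DKO 1 to 4 and to 114, 430.3, 316 and 377 CPM in Controls 1 to 4, with all 7 tested below 0. Their median was -0.37, against -0.085 within the higher run and -1.60e-04 with the run as a block (4 of 7 below 0), and 0 passed with edgeR, DESeq2 or limma-voom or had an unadjusted p under 0.05. The steroidogenic gene Star, picked after its values were seen, was also lowest in these 3 libraries. Star was at 821, 907, 3267 and 3396 CPM in DKO 1 to 4 and at 1016, 2395, 2521 and 2497 CPM in Controls 1 to 4. The part of these markers in the members' levels was not tested, and the run cannot be told apart from whatever else those libraries share. Without DKO 2 and Control 1, the libraries with high Ovgp1, the members' median was -0.57 and edgeR called 0, an analysis chosen after seeing the data. That fit keeps DKO 1 but no Control of the lower run, so the run is not balanced in it. Within the higher run alone the median was -0.32.

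Spread between libraries was larger for the members than for genes at large, in both groups. The SD of log2 CPM had a median of 0.787 over members in DKO, against 0.219 over all genes, and of 0.586 in Control, against 0.272. Above the 90th percentile of all genes lay 17 of 30 members in DKO and 9 in Control. Egr3 (2.01), Nr4a3 (1.94), Fosb (1.81) and Egr2 (1.70) had the widest spread in DKO, and Fosb (1.40), Egr2 (1.21) and Egr3 (1.20) in Control. Myc had the narrowest in DKO (0.037, against 0.542 in Control), and Sik1 the narrowest in Control (0.133, against 0.495 in DKO).

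**Figure D4:**
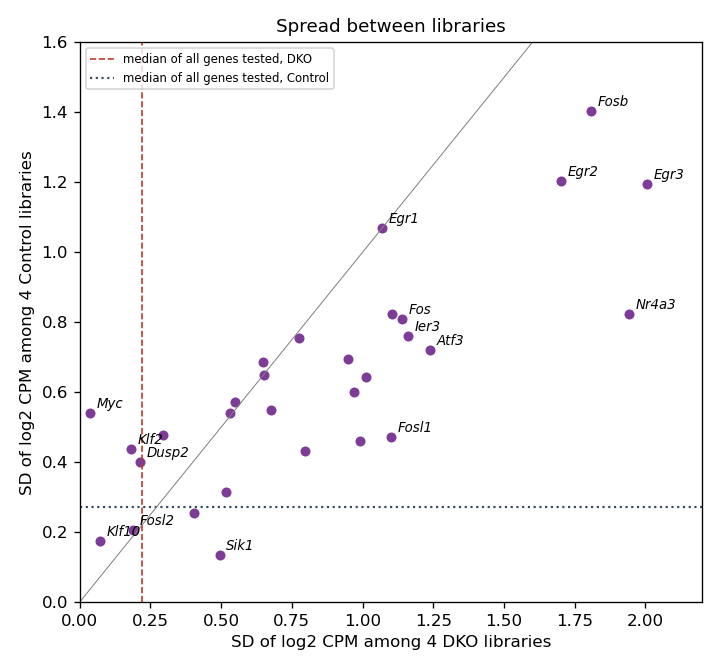
SD of log2 CPM among the 4 DKO libraries (horizontal) and among the 4 Control libraries (vertical) for each of the 30 members; dashed and dotted lines are the medians of all genes tested, 0.219 in DKO and 0.272 in Control. Egr3, Nr4a3, Fosb and Egr2 lie far to the right, and Myc lies at the left edge.

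Genes upstream of the members showed no shift of that size. Of 34 kinases and factors of early gene induction, all tested, 0 passed with edgeR in either direction, 8 had an unadjusted p under 0.05 (15.4% of all genes), 15 were above 0 and 19 below, and the median was -0.06. The smallest p was that of Prkaca, the catalytic subunit of cAMP-dependent kinase, at 157 ± 4.00 CPM in DKO and 118 ± 10.7 CPM in Control (0.41 ± 0.093, adjusted p = 0.0673 by edgeR, higher run 0.40). DESeq2 called Prkaca and Elk3 higher (3.77% of all genes), the name Elk3 being added after its values were seen, and limma-voom called 0. Srf was at 90.8 ± 15.6 CPM in DKO and 124 ± 26.2 CPM in Control (-0.45 ± 0.17, adjusted p = 0.242 by edgeR, higher run -0.35). Creb1 was at 85.9 ± 8.52 CPM in DKO and 91.6 ± 14.9 CPM in Control (-0.09, adjusted p = 0.794 by edgeR, higher run 0.026).

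Another 43 early response genes lay below 0 in most cases, as the members did. Of 42 tested, 0 passed with edgeR, 13 had an unadjusted p under 0.05 (15.4% of all genes), 38 were below 0 and 4 above, and the median was -0.40, and -0.23 within the higher run. Rgs2, a brake on Gq-coupled receptors, had the smallest p, at 369 ± 106 CPM in DKO and 570 ± 65.7 CPM in Control (-0.62 ± 0.20, adjusted p = 0.158 by edgeR, higher run -0.39). DESeq2 called 3 lower (2.79% of all genes), Rgs2, Ccn2 and Nfil3, the last 2 named after their values were seen, and limma-voom called 0.

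The other heat shock and chaperone genes lay mostly above 0. Of 24, 23 were tested and 0 passed with edgeR, DESeq2 or limma-voom, with 2 at an unadjusted p under 0.05 (15.4% of all genes). Of the 23, 16 were above 0 and 7 below, with a median of 0.08, and of 0.41 within the higher run. The list varied between libraries of 1 group. It summed to 10700, 10650, 15050 and 18870 CPM in DKO 1 to 4 and to 10400, 11620, 10580 and 15850 CPM in Controls 1 to 4. Hspb1, a small heat shock protein gene, had the smallest p, at 35.7 ± 9.80 CPM in DKO and 51.5 ± 10.98 CPM in Control (-0.53 ± 0.21, adjusted p = 0.259 by edgeR, higher run -0.32). Hsf1, the main heat shock factor, was at 54.3 ± 5.85 CPM in DKO and 59.6 ± 9.07 CPM in Control (-0.13, adjusted p = 0.686 by edgeR, higher run -0.088).

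**Figure D5:**
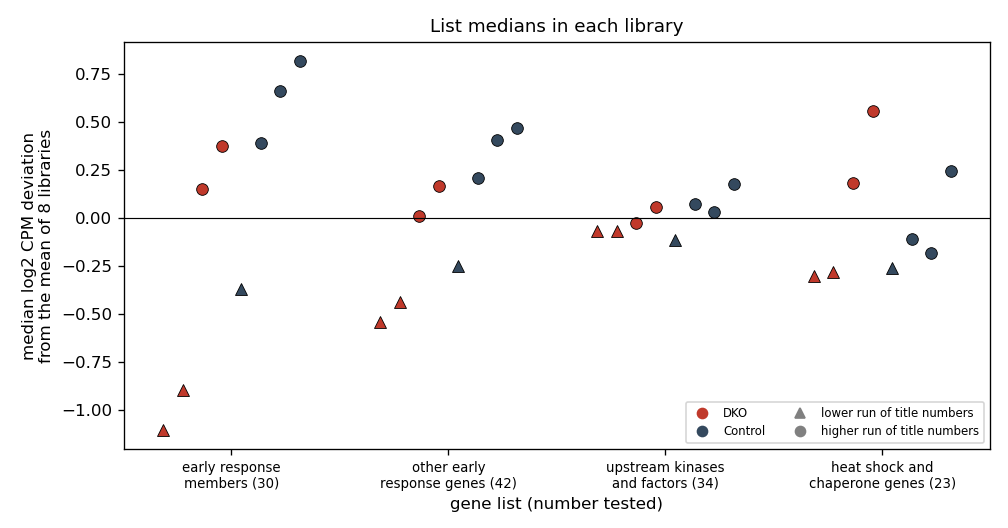
Median log2 CPM deviation from the 8-library mean (vertical) for the members and 3 other gene lists (horizontal), 1 point per library; red is DKO, dark is Control, and triangles are the lower run of title numbers. Members run from -1.11 in DKO 1 to 0.82 in Control 4, while the upstream genes stay between -0.12 and 0.17.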

How the data were processed

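The authors deposited raw counts per gene for each library. Per the file headers these came from featureCounts (Subread 1.5.2), with exons summed by gene ID under the reverse-strand setting, on RefSeq genes of GRCm38.p5. STAR 2.4.2a, Trimmomatic 0.33 and 0.36, bcl2fastq 2.17.1.14 and edgeR 3.12.0 are named in the submitters' processing notes. Libraries were made with a stranded poly(A) kit per the labels' protocols. Symbols and promoters came from RefSeq tables of GRCm38.p6, and coordinates of genes are those of the count tables. Libraries of 1 group differed by more than sampling noise in every pair (reduced chi-square 22.9 to 129), so none was taken as a repeat deposit of another. The series' design text gives 4 mice per group, and each library was taken as 1 mouse.

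The computation used R 4.3.3, edgeR 4.0.16, limma 3.58.1, DESeq2 1.42.0 and Python 3.11.15. Genes were kept with filterByExpr, TMM factors ran from 0.943 to 1.06, and the test was edgeR's robust quasi-likelihood F-test, two-sided, with Benjamini-Hochberg adjustment over 16870 genes. SE is the log2 fold change divided by the square root of F. The SD of log2 CPM used a prior count of 2. The scripts were tested on simulated data. Members and gene lists were chosen with earlier results of these data known. By rule, values per library are given for the 8 members with the smallest p and the founding gene of each family, other members by means or ranges, and each other list by its gene with the smallest p, with Srf, Creb1 and Hsf1. Marker lists of macrophages, endothelium, smooth muscle, theca and red cells were also computed. Alternatives were 3 scalings, 2 filters, 4 other tests or dispersions, 2 blocks, the higher run of title numbers alone, and 8 fits without 1 library each.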

Additional observations from a re-analysis of the deposited data

How the results depend on the processing

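With all 8 libraries edgeR called 212 genes, of which 0 were members. DESeq2 called 1107 genes, 3 members, 2 upstream genes and 3 other early response genes, and limma-voom with quality weights 1651, 2, 4 and 5. A block for the run of title numbers gave 526, 2, 1 and 3. Upper quartile factors and library size only each gave 1 upstream gene. Within the higher run, 1 member was called. Without DKO 2 and Control 1, an analysis chosen after seeing the data, 97 genes were called. Leaving out each library in turn gave 2 to 506 genes, 0 to 2 upstream genes and 0 to 1 other early response genes. The replicate block called 743 genes, 9 members (1 higher, Dusp1, and 8 lower, against 4.4% of all genes), 1 upstream gene and 8 other early response genes. Whether the replicate numbers pair the samples was not settled. Deviations of same-numbered libraries correlated at 0.16, -0.36, 0.31 and 0.47. DKO 1, DKO 3 and DKO 4 correlated best with the Control of their own number. DKO 2 correlated best with Control 1 (0.64), the other library with high Ovgp1, and Control 2 correlated best with DKO 3 (0.26). Signs turned for Fosl2 with quality weights (-0.026), and within the higher run for Egr3 (0.16), Dusp6 (0.052), Nr4a1 (0.24), Nr4a2 (0.15) and Sik1 (0.051). Leaving out 1 library moved Fosl2 between -0.068 and 0.11, Nr4a1 between -0.42 and 0.055, and Nr4a2 between -0.69 and 0.014. The cause was not tested. Low counts kept Jund, Hspa1a and Hspa1b out of the test.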

Other observations

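Macrophage markers summed to 231 to 292 CPM in DKO and 239 to 345 CPM in Control, and none of 9 passed the test with edgeR (1 at an unadjusted p under 0.05, DESeq2 called 1 lower, limma-voom 0). Endothelial markers summed to 619.5 to 969 CPM in DKO and 603.5 to 772 CPM in Control, with 8 of 9 above 0 and a median log2 fold change of 0.20 (0.41 within the higher run). Smooth muscle markers summed to 1571 to 2664 CPM in DKO and 2014 to 3858 CPM in Control, with 6 of 7 below 0 and a median of -0.56. Within the higher run 7 of 7 were below 0, with a median of -0.72, and edgeR called 0 of them with all 8 libraries. Theca markers summed to 298 to 640.3 CPM in DKO and 529 to 912 CPM in Control, with 4 of 5 below 0 (2 within the higher run). Red cell markers summed to 186 to 805 CPM in DKO and 266 to 584 CPM in Control, with 3 of 5 above 0. Within that list Hbb-bs was at 0.609, 1.06, 255 and 442 CPM in DKO 1 to 4. In Controls 1 to 4 it was at 105, 323, 306 and 253 CPM. Hbb-bt was at 0.178, 0.0883, 45.7 and 86 CPM in DKO 1 to 4, and at 22.1, 58.7, 51.7 and 43.0 CPM in Controls 1 to 4. In both genes the libraries of the lower run were the lowest of their group, and the reason was not tested. Hba-a1 was at 103, 248.5, 171 and 153 CPM in DKO 1 to 4 and at 73.6 to 113 CPM in Control. The part of these cells in the members' levels was not tested.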
